A study of Rattus norvegicus with 9 samples.

Results

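The genes described here are 10 negative regulators and transcription factors that ERK can switch on downstream of its own kinase cascade. Among them are the phosphatases Dusp4, Dusp5 and Dusp6 and the Sprouty genes Spry1, Spry2 and Spry4. The others are the Sprouty-related Spred1, the ETS factors Etv4 and Etv5, and Phlda1. All 10 were chosen by gene symbol from a table of 19085 rat genes, and all passed the filter on low counts that left 13256 genes to test. Messenger RNA had been sequenced in 9 libraries of primary osteoblasts, isolated from the calvaria of newborn male Sprague-Dawley rats and used at first passage, although the tissue label of every sample reads knee. All 3 groups of 3 libraries were kept for 7 days in osteogenic induction medium with β-glycerophosphate, ascorbic acid and dexamethasone. The control group received this medium alone, the thrombin group 20 U/mL thrombin, and the PD03 group 20 U/mL thrombin together with 0.1 µM of the MEK inhibitor PD0325901 (PD03). The concentration is that of the design text, and a protocol for short treatments in the labels gives the same figure in mM. No group received PD03 without thrombin. The paper calls the samples of a group independent, but neither it nor the labels say whether they came from separate animals or cultures, so the p-values measure the spread between these libraries, which may be technical.

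Growth factor receptors and several G protein-coupled receptors, among them the thrombin receptor PAR1, activate RAS, which passes the signal through RAF and MEK to ERK. In the paper, the PAR1 antagonist vorapaxar did not restore osteogenic markers under thrombin, and the authors call that inhibition independent of PAR1. Active ERK induces genes whose products act back on the cascade: dual-specificity phosphatases remove the activating phosphates from ERK, while Sprouty and Spred proteins act further up, between the receptor and RAF. Transcripts of these genes are widely used as a readout of ERK output, since many of them are short-lived and follow the activity of MEK. The comparison of PD03 with thrombin therefore asks which of these transcripts differed after 7 days with the MEK inhibitor in thrombin-treated osteoblasts. The comparison of thrombin with control asks which of them differed after 7 days with the protease. Direct effects of MEK on a transcript and later changes in the cells cannot be told apart at this single time.

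Total counts lay between 15447832 and 19841468 per library, and TMM scaling factors were lower in the PD03 libraries (0.9488 to 0.954) than in the other 6 (1.017 to 1.043). The 10 listed osteoblast markers, whose sum was nearly all Col1a1, Col1a2 and Sparc, came to 65939 to 72163 CPM (counts scaled to a common library size) in control, 60864 to 64178 in thrombin and 103268 to 106544 in PD03 libraries. Of these markers, Bglap, Ibsp and Dlx5 did not exceed 9 counts in any library. Runx2 went the other way from the sum, at means of 42.8, 51.1 and 32.1 CPM in control, thrombin and PD03, and Sp7 (4.25, 6.2 and 4.95 CPM) and Alpl (1.67, 0.345 and 3.11 CPM) were low. Summed myeloid markers, mostly Cd14, stood at 20.4 to 23.9 CPM in control, 29 to 32.9 in thrombin and 17.5 to 18.6 in PD03, with Ptprc at 0 to 6 counts, and endothelial markers at 7.89 to 8.9, 7.29 to 9.75 and 12 to 14 CPM. Chondrocyte markers, mostly Col2a1 (Sox9 was at means of 7.68, 14.3 and 16.2 CPM), summed to 94.5 to 104, 68.6 to 74.6 and 88.7 to 95.8 CPM, skeletal muscle markers to 7.39 to 9.03, 7.81 to 9.16 and 9.61 to 10.8 CPM, and adipocyte markers to 0.544 to 1.52, 0.119 to 0.466 and 3.61 to 6.28 CPM. Of the adipocyte markers, Lep alone was at means of 0.677, 0.0754 and 4.54 CPM in control, thrombin and PD03. Adipoq, Plin1 and Fabp4 did not exceed 5 counts in any library. The part that these shifts had in the values below was not tested, and in bulk RNA fewer cells of a type cannot be told apart from less RNA per cell.

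Of the 10 feedback transcripts, 7 were lower with PD03 than with thrombin alone. Phlda1, Etv4 and Dusp6 fell the furthest, with log2 fold changes of -2.70, -2.62 and -2.40. Etv5, Dusp5, Spry2 and Spry4 followed at -1.18, -1.03, -0.87 and -0.61. Dusp4, Spred1 and Spry1 were not called, and Spry1 was the only one of the 10 with a higher level under PD03 than under thrombin, at a log2 difference of 0.42. Here and below, called means a Benjamini-Hochberg adjusted p-value under 0.05 in edgeR's quasi-likelihood test together with a log2 fold change beyond 0.58 in either direction. Over all tested genes, 6.31% were called lower and 9.61% higher in this comparison, and the higher share of those calls moved from 60.4% to 46.5% with scaling by library totals. On adjusted p alone, 9 of the 10 were lower (Dusp4 not in the DESeq2 test) and 1 was higher, against 24.5% and 25.3% of all genes. The median log2 fold change was -0.95 over the 10 genes and 0.01 over all genes.

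Against control, the same 7 genes were lower in the PD03 group and none was called higher, where 4.07% of all genes were called lower and 4.9% higher (a higher share of 54.6% of calls, or 34.1% with library totals). Under both scalings 7 of the 10 genes were called lower in each comparison. On adjusted p alone, 8 were lower and 1, Dusp4, was higher, though not in the DESeq2 test (all genes 20.2% and 19.7%), and the median was -1.02 against -0.00 over all genes. Thrombin against control gave a different picture, with 2 genes called higher, Phlda1 and Dusp4, and none called lower (all genes 2.62% and 5.44%). On adjusted p alone 4 genes were lower there and 2 higher (all genes 14.6% and 14.1%), with a median of -0.12 against -0.01. All 10 genes differed among the 3 groups in the test of both differences together, as did 56% of all genes. Each group enters 2 of the 3 comparisons, so these share libraries: a high thrombin level raises the difference from control and lowers that of PD03 against thrombin.

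**Figure D1:**
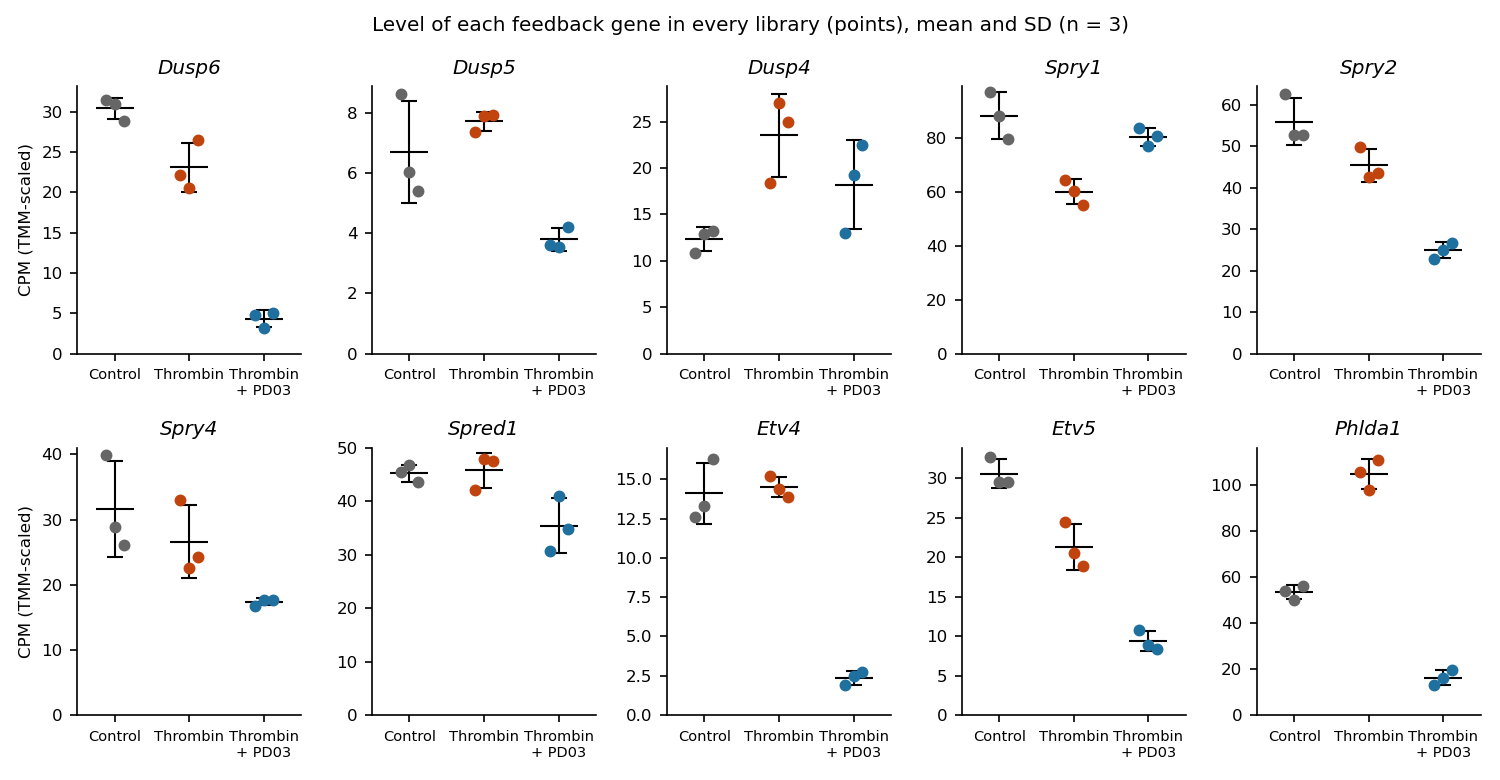
Level of each of the 10 feedback genes in CPM scaled by TMM (y axes, each from 0) in every library of the control, thrombin and thrombin + PD03 groups (points), with the mean and SD of 3 libraries (black). Phlda1 rose with thrombin to a mean of 105 CPM and fell to 16.3 CPM with PD03, whereas Spry1 was lowest with thrombin at 59.9 CPM and stood at 80.3 CPM with PD03.

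Promoter sequence was looked up for the genes that fell most with PD03 and for those that moved least, to set the ends of the response side by side. RefSeq windows on the rat assembly GRCr8, from 250 bases before to 50 after the start of the gene, were found for 8 of the 10 genes, with 2 windows for Spry2, and there was none for Dusp4 and Etv4. The lines below give the 250 bases before the start, all on the + strand and 5′ to 3′, for Phlda1 at chr7:48853440-48853689 and Dusp6 at chr7:35979354-35979603, which fell, and for Spred1 at chr3:124436980-124437229 and Spry1 at chr2:122485097-122485346, which were not called. The last of these was picked after its values were seen. Capitals mark a match to any motif searched, on either strand.
Phlda1: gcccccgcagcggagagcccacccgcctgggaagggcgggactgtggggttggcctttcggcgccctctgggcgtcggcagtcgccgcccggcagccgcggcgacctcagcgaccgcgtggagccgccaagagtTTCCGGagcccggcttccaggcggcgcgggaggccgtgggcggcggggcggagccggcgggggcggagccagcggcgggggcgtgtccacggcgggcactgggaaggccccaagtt
Dusp6: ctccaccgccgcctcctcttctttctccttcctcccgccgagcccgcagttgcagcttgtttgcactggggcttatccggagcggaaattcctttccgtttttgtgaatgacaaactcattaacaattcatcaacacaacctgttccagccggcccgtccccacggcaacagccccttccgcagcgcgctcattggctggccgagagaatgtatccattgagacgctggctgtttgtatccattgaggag
Spred1: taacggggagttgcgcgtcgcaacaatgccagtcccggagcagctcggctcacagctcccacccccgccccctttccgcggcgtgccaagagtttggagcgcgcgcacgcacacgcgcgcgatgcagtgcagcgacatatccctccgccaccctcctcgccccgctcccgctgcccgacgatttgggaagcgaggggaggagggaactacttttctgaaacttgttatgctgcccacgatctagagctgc
Spry1: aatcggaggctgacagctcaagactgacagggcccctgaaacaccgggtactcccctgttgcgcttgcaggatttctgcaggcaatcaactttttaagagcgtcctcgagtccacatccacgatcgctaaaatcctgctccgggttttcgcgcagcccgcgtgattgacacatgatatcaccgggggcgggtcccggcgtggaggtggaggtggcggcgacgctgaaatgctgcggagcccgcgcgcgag

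The motifs searched on both strands were CCGGAA and GGAAGT (which can overlap), both longer forms of the ETS core GGAA. The others were the AP-1 site TGACTCA, the cAMP response element TGACGTCA and its part TGACG, and the serum response element. The ETS form CCGGAA was in 4 of the 9 windows (Dusp5, Phlda1, Spry2 and Spry4) and in 15% of 33469 rat windows. The other ETS letters, GGAAGT, were in windows of Dusp5 and Spry2 and in 22.6% of all windows, and TGACG was in the same pair of genes and in 21.2%. Neither TGACTCA (4.63% of all windows) nor TGACGTCA (1.83%) was in any of the 9. The serum response element was in 1.64% of all windows and, among these genes, in that of Dusp5 alone, which held 2 matches end to end. That stretch, shown because it is the only such one among the 8 genes with a window and chosen after the search, lies at chr1:262543672-262543731 on the + strand of GRCr8, with the serum response element matches in capitals and the other motifs unmarked.
Dusp5: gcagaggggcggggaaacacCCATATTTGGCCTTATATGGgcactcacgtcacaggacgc

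These matches are letters in a window and not measured binding. Dusp6, with 1 of the 3 largest falls, and Spry1, which did not fall, both had windows without a match to these motifs. The window of Etv5 had none either. The core GGAA alone was not searched, so a sequence without capitals can hold it, as those of Dusp6 and Spred1 do.

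Dusp6 encodes the cytoplasmic phosphatase that acts on ERK with high selectivity. Its transcript stood at 31.4, 30.9 and 28.9 CPM in the control libraries, at 22.2, 20.5 and 26.5 CPM with thrombin and at 4.82, 3.11 and 5.02 CPM with PD03. The PD03 libraries lay far below all the others, and the thrombin libraries lay below the controls without overlap. Dusp6 fell with PD03 against thrombin (log2 fold change -2.40, SE 0.12, adjusted p = 4.1e-20) and against control (-2.80, SE 0.12, adjusted p = 2.0e-22), changes of 5.28-fold and 6.97-fold. Against control it ranked 20 among the 13256 tested genes ordered from the largest fall. With thrombin alone its log2 fold change was -0.40 (SE 0.094, adjusted p = 0.00085), short of the fold threshold.

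Dusp5 encodes the nuclear phosphatase for ERK. It was measured at 8.65, 6.06 and 5.43 CPM in control, 7.38, 7.9 and 7.93 CPM with thrombin and 3.6, 3.56 and 4.22 CPM with PD03. Every PD03 library was below every other library, while control and thrombin overlapped because control replicate 1 stood above the thrombin libraries. Dusp5 fell against thrombin (log2 fold change -1.03, SE 0.17, adjusted p = 1.8e-06) and against control (-0.83, SE 0.17, adjusted p = 0.00011). The difference between thrombin and control was 0.19 (SE 0.15, adjusted p = 0.39, 95% interval -0.12 to 0.50) and 0.43 without control replicate 1. In RefSeq on GRCr8, the long non-coding RNA LOC134485251 overlaps Dusp5. Since the sources used here do not give the strand setting of the counting, reads of the pair cannot be told apart.

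Dusp4 encodes a nuclear phosphatase that acts on ERK and on the stress kinases, and it did not follow Dusp6. Its level was 10.8, 12.9 and 13.2 CPM in control, 18.4, 27 and 25 CPM with thrombin and 13, 19.2 and 22.5 CPM with PD03. Thrombin libraries were above all controls, and the PD03 libraries spread over the range between, overlapping both groups. Dusp4 rose with thrombin by 0.94 (SE 0.13, adjusted p = 2.1e-07), which is 1.91-fold. PD03 against thrombin gave -0.38 (SE 0.12, adjusted p = 0.011, 95% interval -0.63 to -0.13), and PD03 against control gave 0.56 (SE 0.14, adjusted p = 0.00081), just under the fold threshold. Both of these differences depended on single libraries and on the tool. PD03 against thrombin was -0.17 without PD03 replicate 1 (adjusted p = 0.22), -0.26 without thrombin replicate 2 (adjusted p = 0.12) and -0.33 without thrombin replicate 3 (adjusted p = 0.058), and its adjusted p was 0.2 in the DESeq2 test. PD03 against control became a call without control replicate 2 (0.60), control replicate 3 (0.61) or PD03 replicate 1 (0.77), whereas it was 0.38 without PD03 replicate 3 and did not pass in the DESeq2 test (adjusted p = 0.055). FPKM values gave 0.33 after adding 1 (adjusted p = 0.1) and 0.41 after adding 0.1 (adjusted p = 0.091).

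Of the Sprouty genes, whose products dampen signalling from receptor tyrosine kinases to RAS and RAF, Spry2 and Spry4 fell with PD03 and Spry1 did not. Spry2 was at 62.6, 52.7 and 52.7 CPM in control, 49.8, 42.7 and 43.7 CPM with thrombin and 22.9, 25.1 and 26.8 CPM with PD03. The 3 groups did not overlap, with PD03 lowest. Spry2 fell against thrombin (log2 fold change -0.87, SE 0.077, adjusted p = 7.9e-13) and against control (-1.17, SE 0.075, adjusted p = 8.3e-17), and thrombin against control gave -0.31 (SE 0.070, adjusted p = 0.00061), which was not called.

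Spry4 varied widely among the control and thrombin libraries and little among those with PD03, at 39.9, 28.8 and 26.1 CPM in control, 33, 22.5 and 24.3 CPM with thrombin and 16.7, 17.7 and 17.7 CPM with PD03. Replicate 1 was the highest library of both the control and the thrombin group, and the PD03 libraries lay below all 6. Spry4 fell against thrombin (log2 fold change -0.61, SE 0.12, adjusted p = 2.4e-05) and against control (-0.87, SE 0.11, adjusted p = 3.5e-08). The fall against thrombin sat at the edge of the fold threshold: it was no longer called without thrombin replicate 1 (-0.43), from FPKM with 1 added (-0.56), or when edgeR's glmTreat tested it against the threshold itself (adjusted p = 1). Thrombin against control gave -0.26 (SE 0.11, adjusted p = 0.069). Over the alternatives it ran from -0.44 without thrombin replicate 1 (adjusted p = 0.0016) to -0.05 without control replicate 1 (adjusted p = 0.8), and it was called in none.

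Spry1 was below control with thrombin, as was Spry2, but Spry1 was not lower again with PD03. It stood at 97, 87.8 and 79.6 CPM in control, 64.3, 60.3 and 55.1 CPM with thrombin and 83.4, 76.9 and 80.7 CPM with PD03. Every thrombin library was below every library of the other 2 groups, which overlapped. The log2 fold change was -0.56 for thrombin against control (SE 0.061, adjusted p = 5.4e-10), 0.42 for PD03 against thrombin (SE 0.061, adjusted p = 1.5e-07) and -0.13 for PD03 against control (SE 0.059, adjusted p = 0.068, 95% interval -0.25 to -0.01). None of these passed the fold threshold, although the first did so without control replicate 3 (-0.62) or thrombin replicate 1 (-0.61).

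Spred1 encodes a Sprouty-related protein that brings the RAS inactivator neurofibromin to the membrane. It was measured at 45.4, 46.8 and 43.6 CPM in control, 42, 47.8 and 47.5 CPM with thrombin and 30.6, 40.9 and 34.8 CPM with PD03. The PD03 libraries were the lowest of the 9, and control and thrombin overlapped. PD03 gave -0.38 against thrombin (SE 0.074, adjusted p = 4.1e-05) and -0.36 against control (SE 0.075, adjusted p = 0.00013), both past the adjusted p and short of the fold threshold. Thrombin against control gave 0.02 (SE 0.072, adjusted p = 0.89, 95% interval -0.13 to 0.16), a value that scaling by library totals turned to -0.00. The pseudogene Eno1-ps25 overlaps the Spred1 gene in RefSeq on GRCr8.

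Etv4 and Etv5 encode ETS transcription factors of the PEA3 group, which respond to fibroblast growth factor and ERK signalling in many tissues. Etv4 was at 12.6, 13.3 and 16.3 CPM in control, 15.2, 14.4 and 13.9 CPM with thrombin and 1.91, 2.46 and 2.75 CPM with PD03. Control and thrombin overlapped fully, and the PD03 libraries held 36 to 45 counts each. Etv4 fell against thrombin (log2 fold change -2.62, SE 0.15, adjusted p = 1.3e-18), a 6.13-fold change, and against control (-2.57, SE 0.15, adjusted p = 5.4e-18). Thrombin against control gave 0.04 (SE 0.11, adjusted p = 0.82, 95% interval -0.19 to 0.27), and -0.03 without control replicate 1.

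Etv5 was at 32.7, 29.5 and 29.5 CPM in control, 24.5, 20.5 and 18.9 CPM with thrombin and 10.8, 8.94 and 8.39 CPM with PD03. The groups stepped down in that order without overlap. Etv5 fell against thrombin (log2 fold change -1.18, SE 0.11, adjusted p = 1.1e-12) and against control (-1.70, SE 0.10, adjusted p = 8.0e-18). With thrombin its log2 fold change was -0.52 (SE 0.090, adjusted p = 1.1e-05), which passed the fold threshold only without thrombin replicate 1 (-0.63).

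Phlda1 encodes a pleckstrin homology-like domain protein that is induced by growth factors and has been tied to the control of cell survival. Its level was 54.2, 50 and 56 CPM in control, 106, 97.9 and 111 CPM with thrombin and 13.2, 16 and 19.6 CPM with PD03. The 3 groups were far apart, with thrombin highest and PD03 lowest. Phlda1 rose with thrombin by 0.98 (SE 0.067, adjusted p = 9.5e-16), which is 1.97-fold, and fell with PD03 against thrombin (log2 fold change -2.70, SE 0.079, adjusted p = 5.2e-29) and against control (-1.72, SE 0.083, adjusted p = 7.2e-21). It was the only one of the 10 that was called higher with thrombin and lower with PD03. In the comparison of PD03 with thrombin, Phlda1, Etv4 and Dusp6 ranked 37, 39 and 46 among 13256 genes ordered from the largest fall.

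**Figure D2:**
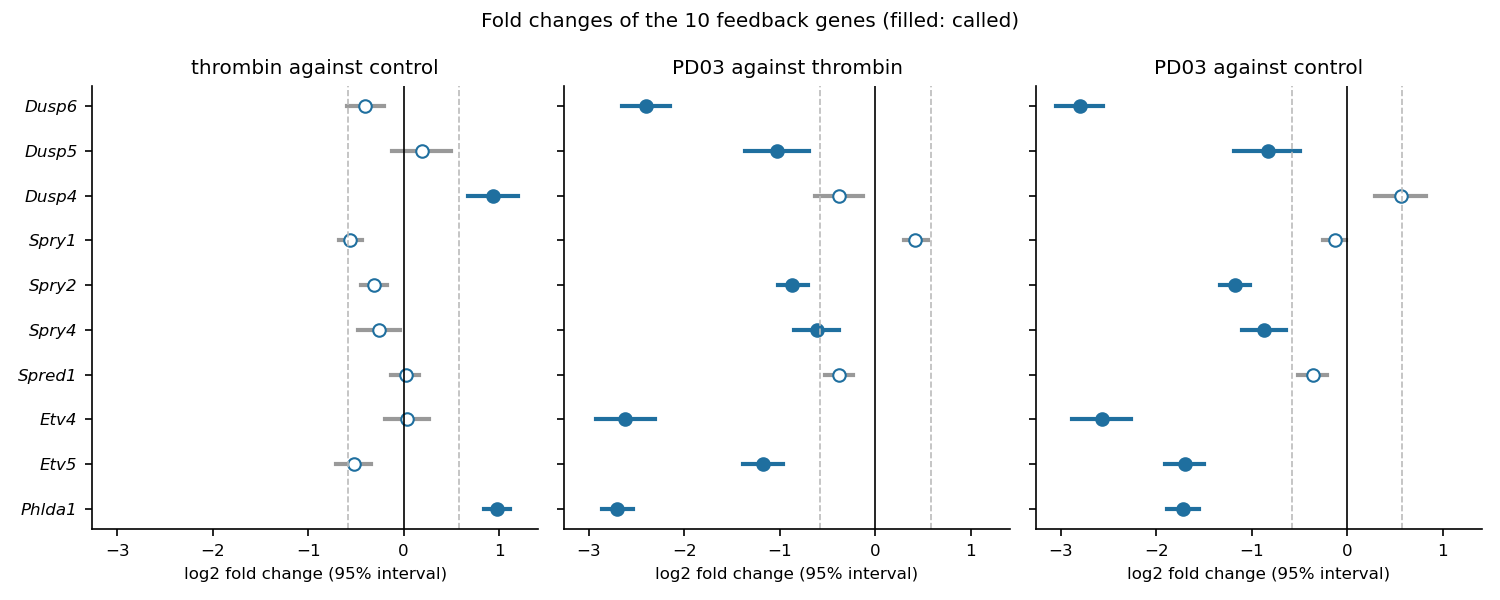
Log2 fold change (x axes) of each gene (rows) with its 95% interval in the 3 comparisons, filled where called, with dashed lines at the fold threshold of 0.58 on either side. Dusp6, Etv4, Etv5 and Phlda1 lie furthest below 0 under PD03, and Dusp4 and Phlda1 are the pair to the right of the upper line with thrombin.

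Whether a gene moved otherwise than Dusp6 was asked within each library, from the log2 ratio of its count to that of Dusp6 with 0.5 added to each, which does not depend on library scaling. An exact permutation test of the F statistic among the 3 groups used all 1680 assignments of the 9 libraries to the groups. Its smallest possible p is 0.0036, and it was adjusted over the 9 ratios. Of these, 8 differed among the groups and the ratio of Etv4 to Dusp6 did not pass (exact p = 0.38). Dusp6 itself fell with PD03 (log2 fold change -2.40 against thrombin), so the ratio of a gene that did not change would also rise. How many of all tested genes would differ in this way was not computed, so the count does not set these genes apart from others. The mean log2 ratio of Etv4 was -1.12 ± 0.26 (SD, n = 3) in control, -0.66 ± 0.23 with thrombin and -0.84 ± 0.50 with PD03, a spread that leaves shifts of this size unresolved.

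From thrombin to PD03, Spry1 moved furthest from Dusp6, with a log2 ratio of 1.53 ± 0.08 in control, 1.38 ± 0.28 with thrombin and 4.24 ± 0.33 with PD03 (SD, n = 3, exact permutation p = 0.025, adjusted 0.032). The ratio shifted between these groups by 2.86 for Spry1, 2.06 for Spred1, 2.05 for Dusp4, 1.84 for Spry4, 1.57 for Spry2, 1.41 for Dusp5 and 1.25 for Etv5. From control to PD03 the shift was larger for Dusp4 (3.37) than for Spry1 (2.71). In each of these 7 the PD03 libraries lay above all the others. Dusp5, Dusp4 and Spred1 reached the smallest possible p (exact permutation, 0.0036, adjusted 0.011). For Phlda1 the shift lay between control and thrombin instead, from 0.81 ± 0.13 to 2.19 ± 0.11 (exact permutation p = 0.014, adjusted 0.032), and its ratio with PD03 was 1.92 ± 0.45. The test does not say which pair of groups differed, all 9 ratios share the Dusp6 counts, and PD03 replicate 2, with the fewest Dusp6 counts (48), gave the highest PD03 value in each. Without control replicate 1 the number of ratios that differed was 5.

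**Figure D3:**
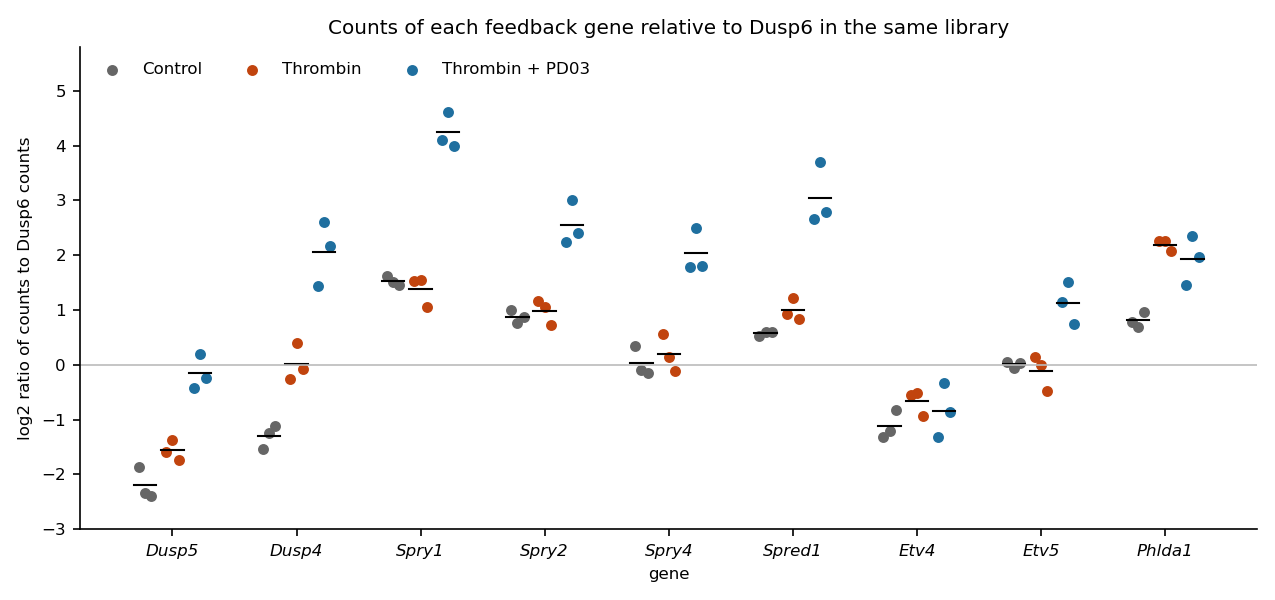
Log2 ratio of the count of each gene to the count of Dusp6 in the same library (y axis, 0.5 added to each count), by group, with points for libraries and bars for the mean of 3. The PD03 points stand above the other groups for Dusp5, Dusp4, Spry1, Spry2, Spry4, Spred1 and Etv5, and overlap the thrombin points for Etv4 and Phlda1.

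The order of the 10 transcripts by level was compared in the deposited FPKM values, which are per length of transcript. In control, Phlda1 was highest at 26.7 ± 1.6 FPKM (SD, n = 3), followed by Spry2 at 16.5 ± 1.85, Spry1 at 13 ± 1.39 and Dusp6 at 11.3 ± 0.583, the last pair overlapping. Etv5 (7.98 FPKM), Spry4 (6.41), Spred1 (6.22) and Etv4 (5.35) formed a run in which each overlapped the next, and Dusp5 (2.92) and Dusp4 (2.89) were lowest and overlapped. With thrombin, Phlda1 reached 52 ± 3.21 FPKM, Spry1 (8.7 FPKM) and Dusp6 (8.48) again overlapped, and the 5 genes from Spred1 (6.22) through Etv5, Dusp4 and Etv4 to Spry4 (5.33) overlapped from each to the next, with Dusp5 (3.32) lowest. With PD03, Spry1 was highest at 10.9 ± 0.434 FPKM, above Phlda1 (7.53 ± 1.47) and Spry2 (6.77 ± 0.517), which overlapped. Spred1 (4.5 FPKM), Dusp4 (3.95) and Spry4 (3.25) followed, each overlapping the next, then Etv5 (2.25), then Dusp5 (1.52) and Dusp6 (1.48), which overlapped, and Etv4 at 0.833 ± 0.15. Dusp6 thus stood at the fourth place among the 10 in control and at the ninth with PD03.

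Profiles were the 3 group means of log2 CPM, with 0.5 added to each CPM value, centred on their mean. The profile of each gene was set against the others by Euclidean distance, as a description over 3 groups of 3 libraries. Spry2 and Spry4 were nearest to each other (0.248), as were Dusp6 and Etv4 (0.335), while Dusp4 was the furthest from any other member (0.715 to Spred1). The median profile of the 10 was 0.30 in control, 0.30 with thrombin and -0.61 with PD03. Outside the 10, the genes closest to it were Rmi2 (0.0199), Drd1 (0.0515), Rgs16 (0.0592), Btg2 (0.0667) and Gpr84 (0.0822). Of these, Rmi2 stood at 17.4 ± 3.17 CPM in control, 17.4 ± 0.879 with thrombin and 9.1 ± 0.279 with PD03 (SD, n = 3), and Btg2, an antiproliferative early response gene, at 35.3 ± 0.515, 35.1 ± 0.553 and 19.7 ± 1.57 CPM. Rgs16, a regulator of G protein signalling, was at 18.6 ± 2.5, 19.5 ± 1.11 and 9.77 ± 0.513 CPM. Drd1 and Gpr84 were below 2 CPM in every group, where the added 0.5 shrinks differences. Their log2 fold changes for PD03 against thrombin were -1.52 and -3.53, where that of Rmi2 was -0.94.

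Other genes of the pathway were described by lists and read against the share of all genes called. That share was 6.31% lower and 9.61% higher for PD03 against thrombin. It was 4.07% and 4.9% for PD03 against control, and 5.44% and 2.62% for thrombin against control. The 4 other MAPK phosphatases tested held 1 gene called lower with PD03 against thrombin, Dusp10, and 1 called higher, Dusp8, both of which act mainly on the stress kinases JNK and p38. Dusp8 was at 1.75 ± 0.163 CPM in control, 2.31 ± 0.212 with thrombin and 7.89 ± 1.34 with PD03 (SD, n = 3), and rose by 1.77 against thrombin (adjusted p = 1.5e-10) and by 2.17 against control (adjusted p = 5.1e-12). Dusp10 fell against thrombin (log2 fold change -0.67, adjusted p = 3.3e-05). Neither was called with thrombin alone, and the list's median with PD03 against thrombin was -0.19. Dusp1 was not analysed here. Among 11 atypical dual-specificity phosphatases, Dusp15 was the only gene called in any comparison, lower with thrombin (-0.91, adjusted p = 0.00085) and higher with PD03 against thrombin (0.70, adjusted p = 0.0069), and the median was -0.03.

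Of 18 other feedback inhibitors of receptor and RAS signalling, 4 were called lower with PD03 against thrombin and none higher (all genes 6.31% and 9.61%). The median was -0.22. The 4 called were Errfi1, which encodes an inhibitor of the EGF receptor (-1.71, adjusted p = 6.7e-24), the Spred relatives Spred3 (-0.94, adjusted p = 6.6e-13) and Spred2 (-0.77, adjusted p = 7.9e-13), and Socs3, an inhibitor of cytokine receptor signalling (-0.68, adjusted p = 1.5e-15), the last named here because so few were called. Spred2 and Spred3 thus fell past the fold threshold while Spred1 (-0.38) did not, but the difference between them was not tested. With PD03 against control 6 of the 18 were called lower and none higher (all genes 4.07% and 4.9%). Thrombin alone gave no call in either direction, with 2 lower and 3 higher on adjusted p (all genes 14.6% and 14.1%).

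Of 16 other ETS factors, 4 were called lower and 1 higher with PD03 against thrombin (all genes 6.31% and 9.61%), with a median of -0.11. Etv1, the closest relative of Etv4 and Etv5, fell (log2 fold change -2.35, adjusted p = 1.2e-10), from 4.57 ± 0.343 CPM with thrombin to 0.897 ± 0.312 with PD03 (SD, n = 3). Ets1 fell likewise (-0.94, adjusted p = 7.9e-17), and the other two called lower, named for the small count, were Ets2 (-0.71, adjusted p = 2.0e-14) and Elk3 (-0.59, adjusted p = 2.9e-14). Spi1, a factor of blood cells, was at 0.76 CPM with thrombin and 1.45 CPM with PD03 and was called higher (0.92, adjusted p = 0.035). Ets2 was the single gene of the list called with thrombin against control, higher by 0.91 (adjusted p = 2.5e-17). Against control, 2 of the 16 were called lower and none higher with PD03 (all genes 4.07% and 4.9%). Of Phlda2 and Phlda3, the relatives of Phlda1, neither was called in any comparison.

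Among 23 other ERK output genes, 13 were called lower and 2 higher with PD03 against thrombin (all genes 6.31% and 9.61%). The median was -0.69. The 3 largest falls above 1 CPM were those of the immediate early transcription factor Egr1 (-3.70, adjusted p = 1.7e-27), the EGF receptor ligand Areg (-3.03, adjusted p = 1.4e-08) and Egr2 (-2.66, adjusted p = 1.5e-14). The 2 called higher, named for the small count, were Epha4 (1.02, adjusted p = 2.0e-06) and Kctd12 (1.10, adjusted p = 5.4e-21). With thrombin against control the list split evenly, with 4 called lower and 4 higher (all genes 5.44% and 2.62%). In PD03 against control, 10 were lower and 1, Hbegf, higher (0.67, adjusted p = 2.2e-09), where all genes gave 4.07% and 4.9%. The 18 genes of the kinase cascade itself had a median of -0.03 with PD03 against thrombin, where the adaptor Shc1 was the only one called (-0.61, adjusted p = 4.9e-18). With thrombin against control, the scaffold Ksr1 was the only one called (-0.64, adjusted p = 1.2e-13), and none was called with PD03 against control.

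**Figure D4:**
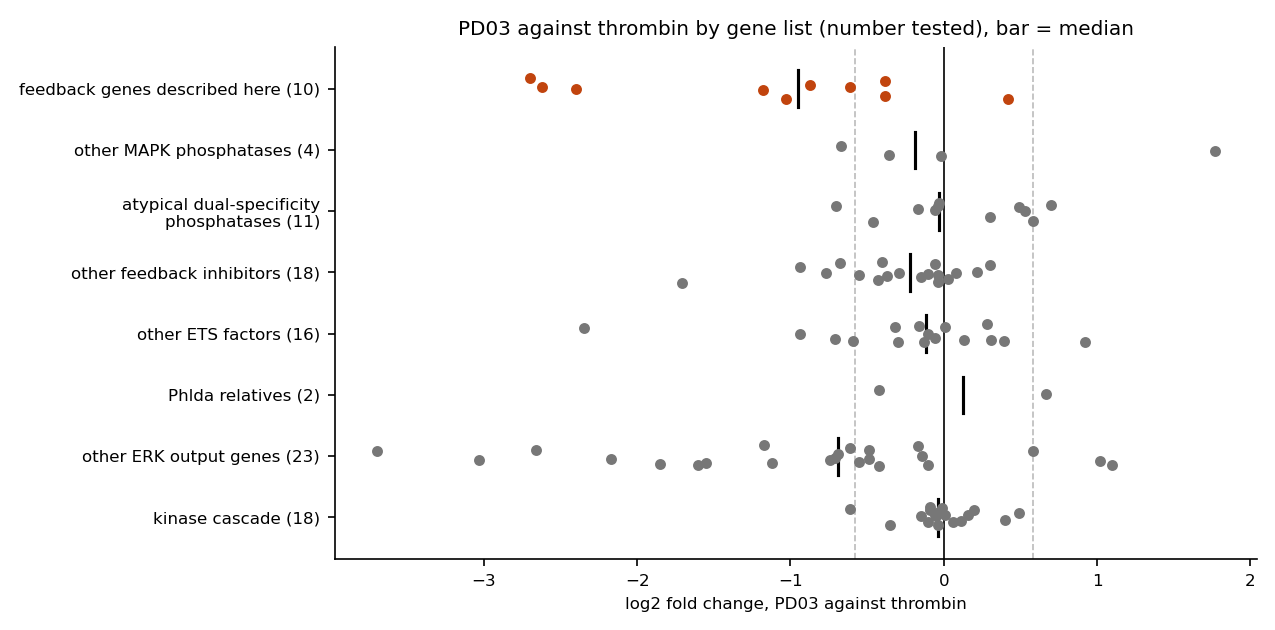
Log2 fold change of PD03 against thrombin (x axis) for the 10 feedback genes (orange) and for the other gene lists (grey), 1 point per tested gene, with a black bar at the median and dashed lines at the fold threshold of 0.58 on either side. The median of the 10 genes is -0.95, that of the other ERK output genes -0.69 and that of the kinase cascade -0.03.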

How the data were processed

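Messenger RNA of primary rat osteoblasts was sequenced in 9 libraries, 3 per group. The authors deposited raw counts per gene and, beside them, FPKM values, which are the counts divided by gene length and by the library total, with no other scaling. The paper names fastp, HISAT2, featureCounts and the build Rnor_6.0, while the submitters' processing notes name HISAT2, HTSeq 0.13.5 and the build mRatBN7.2. For the annotation release and the strand setting, the sources used here give nothing. Counting on either build decides which reads a gene receives, so the counts were used as deposited.

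Counts were analysed with R 4.3.3 and edgeR 4.0.16: filterByExpr (minimum count 10), TMM scaling, 1 quasi-likelihood fit of the 3 groups on the whole table, and Benjamini-Hochberg adjustment over 13256 genes. CPM values use TMM-scaled totals, and the biological coefficient of variation was 4.28%. Standard errors come from the F statistic. Libraries within a group were not duplicates: their chi-square statistic divided by its degrees of freedom was 1.82 to 4.03. Pairs with replicate 1 gave 3.06 to 4.03. Replicates 2 and 3 differed less from each other, at 1.82 in control, 2.15 with thrombin and 1.93 with PD03. DESeq2 1.42.0, limma 3.58.1, other scalings, filters, thresholds, FPKM, a replicate block and leaving out each library were alternatives. The fits and the permutation test were also tested on simulated data. The members, lists and tests were chosen with earlier results of these data known. Named from the lists were all called genes of a list of 8 or fewer, and otherwise the 3 called genes that changed most in PD03 against thrombin and had a highest group mean of 1 CPM or more. Others are marked where named. No column of per-sample values was left out. RefSeq tables of GRCr8 gave promoter windows and overlapping genes. Figures used Python 3.11.15 and matplotlib 3.10.9.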

Additional observations from a re-analysis of the deposited data

How the results depend on the processing

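The number of feedback genes called lower with PD03 stayed at 5 to 7 against control under every alternative with a fold threshold, and likewise at 5 to 7 against thrombin. With no fold threshold, 4 genes were lower with thrombin against control, 1 was higher with PD03 against thrombin and 1 with PD03 against control, and at a log2 fold change above 1 none was higher with thrombin (0). Leaving out 1 library gave 0 to 2 called lower with thrombin, 0 to 1 called higher with PD03 against control, and 5 to 8 ratios to Dusp6 that differed. Only differences of thrombin against control changed sign. Spred1 gave -0.00 with library totals, with FPKM plus 1 and with FPKM plus 0.1, and -0.02 to 0.08 as single libraries were left out, and Etv4 gave -0.03 to 0.17. The cause was not tested. Dusp5 with PD03 against control (-0.83) was not called by glmTreat (adjusted p = 0.42) or at a log2 fold change above 1.

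Scaling by library totals shifted the middle of all tested genes to a log2 value of -0.120 for PD03 against control, and changed the split of calls as given above. The replicate block left the counts at 7, 7 and 10 genes that were lower with PD03 against thrombin, lower against control and different among the groups. Deviations of same-numbered libraries correlated at -0.0456 to 0.0523 and those of differently numbered libraries at -0.0563 to 0.0554, so no pairing by number was seen in them. Whether same-numbered libraries shared a culture or a run was not tested. With 3 libraries per group and PD03 counts of 36 to 91 for Etv4, Dusp5 and Dusp6, small differences between these genes were not resolved.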
